A study of Mus musculus with 2 samples.

Results

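Microbial pattern receptors of the gut are taken here as 10 genes, chosen by name: the Toll-like receptor genes Tlr2, Tlr3, Tlr4, Tlr5 and Tlr9, the NOD receptor genes Nod1 and Nod2, the adaptor gene Myd88, the peptidoglycan recognition protein gene Pglyrp1 and the flagellum-binding protein gene Lypd8. They were chosen with earlier results of these data known, and all 10 were among the 27275 genes measured. RNA came from small intestine of naive mice, with 1 library of each genotype. The KO library was from Spibfl/flVillin-Cre tissue, in which Cre recombinase under the epithelial villin promoter removes the floxed Spib gene. The WT library has the genotype label Spib+Villin-Cre, so both labels name the Cre transgene. Immune cells and stroma of the KO tissue are not targets of that promoter and keep the gene. The sources used here give no strain, age, sex or number of mice behind a library. With 1 library each, no test of the genotypes is possible, and every difference below is one between these 2 libraries.

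Pattern receptors bind molecules that microbes carry and host cells lack. Toll-like receptors at the cell surface sense lipoproteins (TLR2), lipopolysaccharide (TLR4) and flagellin (TLR5), while those in endosomes sense double-stranded RNA (TLR3) and unmethylated CpG DNA (TLR9). All of them except TLR3 signal through the adaptor MYD88 to NF-kB, and TLR3 uses TICAM1 (TRIF). NOD1 and NOD2 detect fragments of peptidoglycan in the cytosol and signal through the kinase RIPK2. PGLYRP1 is a secreted protein that binds and kills bacteria, known from neutrophil granules and, in mice, from the epithelium over Peyer's patches. LYPD8 is a GPI-anchored protein that enterocytes shed into the lumen, where it binds the flagella of motile bacteria and keeps them off the epithelium. SPIB, the factor removed here, is an ETS family transcription factor that M cells need and that B cells also express.

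ETS factors of the SPIB and PU.1 kind bind a purine-rich core, the PU box, and NF-kB binds the kappa B element, so both were looked for in the promoters of the members. Promoters were the RefSeq windows of build GRCm38.p6 and only the 250 bases before the annotated start were searched, on both strands, for the letters GAGGAA (PU box) and for GGGA, any base, then TTTCC (kappa B). RefSeq windows matched 9 of the 10 members in 11 entries, and Tlr4 had none. The PU box was present before Tlr9 and Pglyrp1, 2 of the members, and 23.3% of all 32851 promoter windows hold it. The kappa B letters were present before Pglyrp1 and Tlr3, and 0.356% of all windows hold them. These are matches of letters and not measured binding. The windows of Tlr9, Pglyrp1 and Lypd8 are shown because the first pair hold the PU box and Lypd8, the most abundant member, holds neither motif there. The Pglyrp1 line leaves out the last 10 bases, which lie in an annotated exon. Capitals mark the motifs and each line runs 5′ to 3′ on the strand of the gene, all 3 being on the plus strand.
Tlr9, chr9:106222348-106222597: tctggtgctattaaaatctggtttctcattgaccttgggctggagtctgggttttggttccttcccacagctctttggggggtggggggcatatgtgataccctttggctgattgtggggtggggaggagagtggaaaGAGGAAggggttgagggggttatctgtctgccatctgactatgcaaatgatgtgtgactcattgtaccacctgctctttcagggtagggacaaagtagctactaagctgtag
Pglyrp1, chr7:18884440-18884679: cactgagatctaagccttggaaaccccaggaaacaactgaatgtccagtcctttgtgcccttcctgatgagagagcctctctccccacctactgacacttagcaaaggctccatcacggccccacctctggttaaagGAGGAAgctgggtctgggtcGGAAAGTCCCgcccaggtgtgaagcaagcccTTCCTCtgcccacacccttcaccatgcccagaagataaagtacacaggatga
Lypd8, chr11:58378782-58379031: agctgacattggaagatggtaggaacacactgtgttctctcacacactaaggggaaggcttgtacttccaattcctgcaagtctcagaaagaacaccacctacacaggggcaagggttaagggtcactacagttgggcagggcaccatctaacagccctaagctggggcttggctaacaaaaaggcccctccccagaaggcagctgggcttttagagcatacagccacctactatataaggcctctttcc
Tlr3, minus strand, chr8:45410572-45410601: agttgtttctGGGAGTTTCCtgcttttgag
In the Tlr9 window the PU box begins 112 bases before the start. In the Pglyrp1 window it begins 113 bases before the start on the plus strand and lies again at 62 bases on the minus strand, with the kappa B element between them at 93 bases on the minus strand. None of these matches overlap. For Tlr3 only the 30 bases around its kappa B element, which begins 211 bases before the start, are given, since that stretch lies in an exon of the GENCODE annotation.

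Values are FPKM, fragments scaled for the length of the gene and the size of the library, so that genes can be set side by side within a library. The FPKM values of all 10 members were whole multiples of the value of 1 read, so their read numbers could be recovered, at implied depths of 17658566 reads for KO and 17425640 reads for WT. Intervals are exact at 95% on FPKM as reported and cover counting error only, not differences among mice or in the scaling of the libraries. They can be too narrow, since amplified reads that carry no molecular identifier may be copies of the same molecule. Spib itself had 0.592 FPKM in the KO library (30 reads) and 4.94 FPKM in the WT library (247 reads), a KO/WT ratio of 0.12, which goes with the labels. B cells also express Spib, and summed B cell markers had a KO/WT ratio of 0.374. Their part in the Spib value was not tested. The series calls the tissue proximal, and both libraries held ileal genes at high levels beside proximal ones. Fabp6, the ileal bile acid binding protein, had 1735 FPKM in KO and 2030.2 FPKM in WT, and the ileal bile acid transporter Slc10a2 had 92.1 and 92.6 FPKM. Among proximal markers, Fabp1 had 764 FPKM in KO and 486 FPKM in WT, Adh6a 89.4 and 88.5 FPKM, and Gata4 17.2 and 15.7 FPKM. The duodenal factor Pdx1 had 1 read in KO and 4 in WT.

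The members spanned more than 3 orders of magnitude, and the 5 most abundant had the same order in both libraries. Lypd8 was far above the rest and made up 94.7% of the summed FPKM of the 10 genes in KO and 95.6% in WT. Pglyrp1, Myd88, Tlr3 and Nod1 came next in that order in both. In WT, each of these 5 lay above its successor beyond counting error, whereas in KO the intervals of Myd88 and Tlr3 overlapped. The remaining 5 genes lay between 0.248 and 0.917 FPKM in KO and between 0.467 and 1.25 FPKM in WT. Among them the order was Tlr4, Tlr9, Tlr2, Tlr5 and Nod2 in KO, against Tlr9, Tlr2, Tlr4, Nod2 and Tlr5 in WT. Neighbours in this lower part had overlapping intervals, except for Tlr5 above Nod2 in KO.

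**Figure D1:**
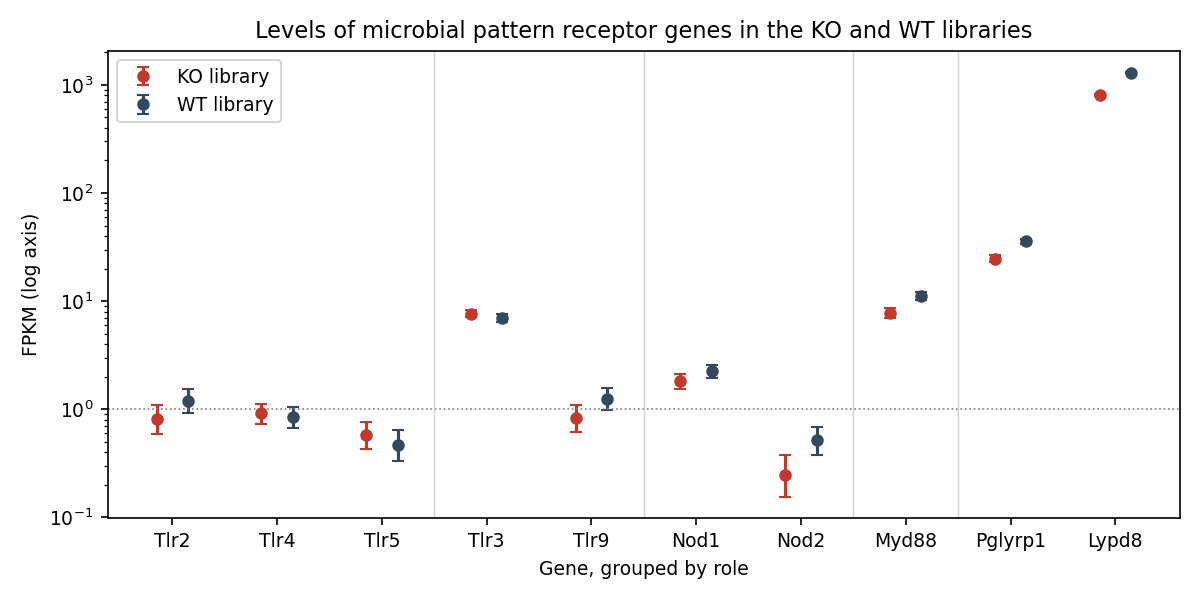
FPKM of each member in the KO library (red) and the WT library (blue) on a log axis, grouped by role from surface receptors at the left to secreted and anchored proteins at the right, with 1 point per library and exact 95% counting intervals as bars. Lypd8 stands at 803 FPKM in KO and 1300.0 FPKM in WT, while 5 of the members lie near or under the dotted line at 1 FPKM.

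Against the WT library, 7 members were lower in KO and 3 were higher, where 58.0% of the 25421 genes with any reads were lower and 42.0% were higher. The 3 higher ones were Tlr3, Tlr4 and Tlr5, with ratios from 1.08 to 1.24, and each of their counting intervals included 1. The 7 lower ones had ratios from 0.482 for Nod2 to 0.803 for Nod1. Comparisons across all genes used the 13479 genes that reached 1 FPKM in either library, and the log2 ratio log2((KO FPKM + 1)/(WT FPKM + 1)), which understates differences of low genes. That filter kept 7 members and left out Tlr4, Tlr5 and Nod2. Of the 7 kept, 6 were lower in KO, where 58.7% of all compared genes were lower, and 1 was higher, against 41.3%. No member reached 2-fold in either direction on this scale, against 2.51% of compared genes at least 2-fold lower and 1.61% at least 2-fold higher. At least 1.5-fold lower was 1 member, Lypd8, against 5.69% of compared genes, and none was 1.5-fold higher, against 3.56%. The median log2 ratio of the 7 members was -0.30 and that of all compared genes was -0.05. Tlr2 and Tlr9 passed the filter only through WT, where they were higher, while Tlr4 and Tlr5 did not pass, so the filter sets part of this count and median and nothing is read from them. For the counts of marker genes below, the shares over all compared genes are the same 58.7% lower and 41.3% higher. Over genes with any reads they are 58.0% lower and 42.0% higher.

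**Figure D2:**
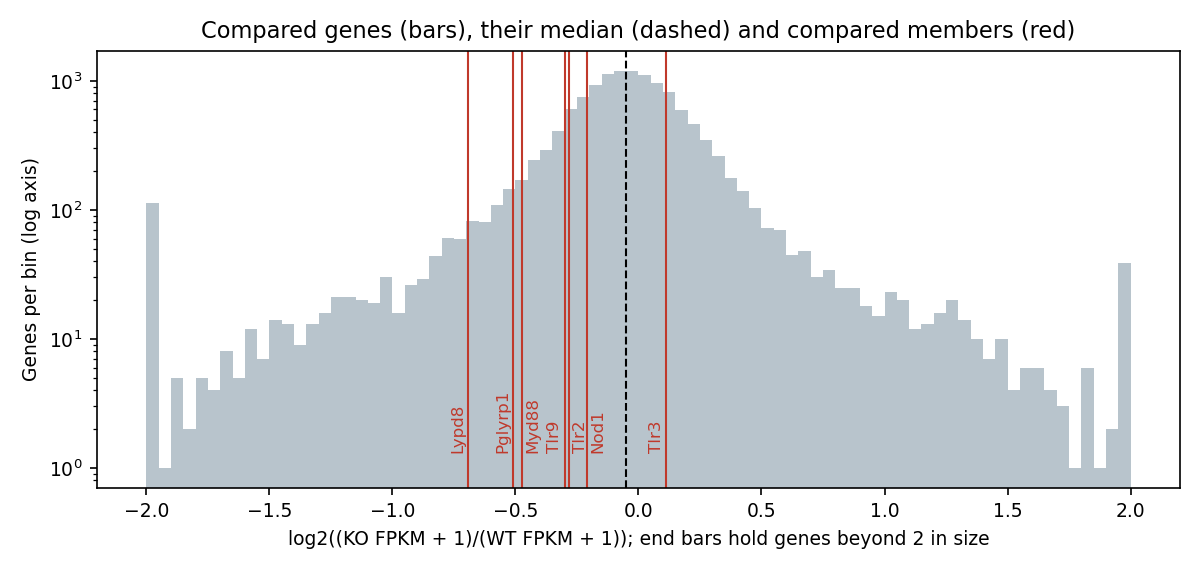
Histogram of log2((KO FPKM + 1)/(WT FPKM + 1)) over the 13479 compared genes, with the number of genes per bin on a log axis, the median of -0.05 dashed and the 7 compared members as red lines. Tlr3 lies right of the median at 0.11 and the other 6 lie left of it, down to -0.69 for Lypd8.

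Of the surface receptors, Tlr2 had a ratio under 1 and Tlr4 and Tlr5 had ratios over 1, and all 3 counting intervals included 1. Tlr2 (ENSMUSG00000027995, chromosome 3, 83836272 to 83841767, minus strand, mm10) had 0.808 FPKM in KO from 43 reads, against 1.2 FPKM in WT from 63 reads. Its KO/WT ratio was 0.674, with a counting interval of 0.446 to 1.01. The number of Tlr2 reads thus leaves both a ratio of 0.5 and one of 1 within counting error. Tlr4 (ENSMUSG00000039005, plus strand of chromosome 4, 66827584 to 66930284) had 0.917 FPKM in KO from 90 reads and 0.847 FPKM in WT from 82 reads, a ratio of 1.08 (0.794 to 1.48). Tlr5 (ENSMUSG00000079164, plus strand of chromosome 1, 182954788 to 182976044), whose product is known in mice from Paneth cells, had 0.579 FPKM in KO from 49 reads and 0.467 FPKM in WT from 39 reads, a ratio of 1.24 (0.798 to 1.94). Summed Paneth cell markers were also higher in KO, at 29995 FPKM against 19811 FPKM in WT, with 6 of 8 higher. Most of that difference lay in Defa24, with 16277.5 FPKM in KO and 9552.8 FPKM in WT, and in Ang4, with 4220.9 and 808.7 FPKM. Lyz1 and Pla2g2a were lower, with ratios of 0.739 and 0.593. The part of Paneth cells in the Tlr5 value was not tested. The 3 surface receptors together came to 2.3 FPKM in KO and 2.51 FPKM in WT.

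Of the endosomal receptors, Tlr9 was lower in KO, and the counting interval of the Tlr3 ratio included 1. Tlr3 (ENSMUSG00000031639, chromosome 8, 45395665 to 45411080, minus strand) had 7.61 FPKM in KO from 700 reads and 6.97 FPKM in WT from 632 reads, a ratio of 1.09 (0.980 to 1.22). Of its exon bases, 381 are shared with Gm45542 on the opposite strand, which was not analysed here. Tlr3 was the most abundant Toll-like receptor in both libraries and held 70.8% of the summed FPKM of the 5 Toll-like members in KO and 64.9% in WT. Tlr9 (ENSMUSG00000045322, plus strand of chromosome 9, 106222598 to 106226883), whose promoter window holds the PU box shown above, had 0.830 FPKM in KO from 51 reads and 1.25 FPKM in WT from 76 reads. The Tlr9 ratio was 0.662 (0.455 to 0.957). The counting intervals of the Tlr3 and Tlr9 ratios did not overlap. The sum over the 5 Toll-like members was nearly equal, at 10.75 FPKM in KO and 10.73 FPKM in WT. In that sum Tlr3, Tlr4 and Tlr5 were higher in KO, while Tlr2 and Tlr9 were lower. TLR9 is known from B cells and plasmacytoid dendritic cells. All 8 B cell markers were lower in KO, with summed levels of 10.6 FPKM in KO and 28.4 FPKM in WT, a ratio of 0.374. Of the 6 plasmacytoid dendritic cell markers, 5 had ratios under 1. The lectin gene Siglech had 24 reads in KO and 37 in WT, a ratio of 0.64 (0.366 to 1.10), and Cox6a2 had 2 reads in each. The sum over the 6 markers was higher in KO, at 161 FPKM in KO and 81.3 FPKM in WT, because of Klk1, a kallikrein with 142 and 58.1 FPKM. The part of these cells in the Tlr9 value was not tested. In whole tissue, fewer cells of a type and less RNA per cell cannot be told apart.

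Both cytosolic NOD receptors were lower in KO. Nod1 (ENSMUSG00000038058, minus strand of chromosome 6, 54923949 to 54972612), the sensor of diaminopimelic acid fragments that epithelial cells widely express, had 1.81 FPKM in KO from 162 reads and 2.25 FPKM in WT from 199 reads. The Nod1 ratio was 0.803 (0.649 to 0.993), with the upper bound just under 1 on FPKM as reported. Nod2 (ENSMUSG00000055994, plus strand of chromosome 8, 88647315 to 88688474), the muramyl dipeptide sensor known from Paneth cells, stem cells and myeloid cells, had 0.248 FPKM in KO from 22 reads and 0.515 FPKM in WT from 45 reads. Nod2 had the lowest ratio of the members, 0.482 (0.276 to 0.820), from the fewest KO reads of the members. Without pseudocount or filter it was the 1 member at least 2-fold lower, a rule by which 16.8% of the genes with any reads were 2-fold lower and 12.4% were 2-fold higher. Under the same rule 3 members (Nod2, Lypd8 and Tlr9) were at least 1.5-fold lower, against 22.1%, and none was 1.5-fold higher, against 17.1%. Of the Paneth cell markers, 6 of 8 were higher in KO and 2 were lower, as given above. Of the 12 macrophage and dendritic cell markers, 9 were lower and 3 higher, beside 58.0% of genes with any reads lower. The 12 had a summed level of 134 FPKM in KO and 171 FPKM in WT. The part of any of these cells in the Nod2 value was not tested.

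Myd88, the shared adaptor, was lower in KO at a moderate level. The gene (ENSMUSG00000032508, chromosome 9, 119335934 to 119341411, minus strand) had 7.74 FPKM in KO from 352 reads and 11.1 FPKM in WT from 500 reads. Its ratio was 0.695 (0.604 to 0.798) and its log2 ratio of -0.47 lay at the 7.91 percentile of the compared genes. The sources used here do not say whether reads kept their strand, and 290 exon bases of Myd88 are shared with Acaa1a on the opposite strand. Acaa1a had 38.7 FPKM in KO and 41.5 FPKM in WT, a smaller difference. Ticam1, the adaptor that serves TLR3, had 14.7 FPKM in KO and 13.9 FPKM in WT, a ratio of 1.06 (0.955 to 1.17). The intervals of the Myd88 and Ticam1 ratios did not overlap. Tlr3 and its adaptor Ticam1 were thus both slightly higher in KO, within counting error on FPKM as reported, and Myd88 was lower.

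The secreted and anchored proteins showed the differences measured with most reads. Pglyrp1 (ENSMUSG00000030413, plus strand of chromosome 7, 18871331 to 18890459) had 24.7 FPKM in KO from 802 reads and 35.7 FPKM in WT from 1142 reads. The Pglyrp1 ratio was 0.693 (0.632 to 0.759), close to that of Myd88, and its log2 ratio was -0.51. Neutrophil markers were read beside Pglyrp1. S100a8 and S100a9, the calprotectin genes, had 0 reads each in KO, against 3 and 4 reads in WT, and Elane had 0 reads in both. Csf3r, the receptor for granulocyte colony-stimulating factor, had 34 reads in KO and 59 in WT, a ratio of 0.569 (0.362 to 0.882). Of the 8 neutrophil markers measured, 5 were lower in KO and 2 were higher. The higher ones were Retnlg, with 4.94 FPKM in KO and 2.64 FPKM in WT, a ratio of 1.87, and Cxcr2, with 3 reads in KO and 0 in WT. At 0 were 5 of the 8 in KO and 2 in WT, and their sums of 5.53 FPKM in KO and 4.59 FPKM in WT were mostly Retnlg. The part of neutrophils in the Pglyrp1 value was not tested. Gp2, the M cell receptor for type I fimbriae, had 1 read in KO and 31 reads in WT, and 5 of 7 M cell markers were lower, Spib included. Summed M cell markers, most of whose level came from genes that other cells also use, such as Marcksl1 and Anxa5, had 61.2 FPKM in KO and 68.4 FPKM in WT. Whether M cells carry part of the Pglyrp1 difference was not tested.

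Lypd8 (ENSMUSG00000013643, plus strand of chromosome 11, 58379043 to 58390728) had 803 FPKM in KO from 18208 reads and 1300.0 FPKM in WT from 29086 reads. Its ratio was 0.618, with a narrow counting interval of 0.606 to 0.629, and its log2 ratio of -0.69 lay at the 4.30 percentile of the compared genes. It ranked 52nd of all genes in KO and 27th in WT. Enterocyte markers differed less as a list, with 4 of 10 lower in KO and a median log2 ratio of 0.10. Their summed levels were 10202 FPKM in KO and 11530.5 FPKM in WT, a ratio of 0.885. Single enterocyte markers went both ways, from Anpep at a ratio of 0.692 to Apoa4 at 1.45. Since LYPD8 is known to rise toward the distal gut, markers of the ileum and colon were set beside it. Of the 9 compared, 7 were lower in KO, beside 58.7% of all compared genes. Cd177 (0.399 FPKM in KO and 1.35 FPKM in WT) passed the filter only through WT, and Car1 (15.9 and 0.874 FPKM) only through KO. The filter thus sets part of this count. Fabp6 had a ratio of 0.854, Slc10a2 of 0.995 and the distal gut hormone Pyy of 0.572, while Car4 and Car1, carbonic anhydrases, were higher in KO with ratios of 1.66 and 18.2. Of 7 compared proximal markers, 6 were higher in KO, beside 41.3% of all compared genes. The exception, the iron exporter gene Slc40a1, had 3.41 FPKM in KO and 8.75 FPKM in WT, a ratio of 0.39. The part of the position of the tissue pieces in the Lypd8 value was not tested.

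**Figure D3:**
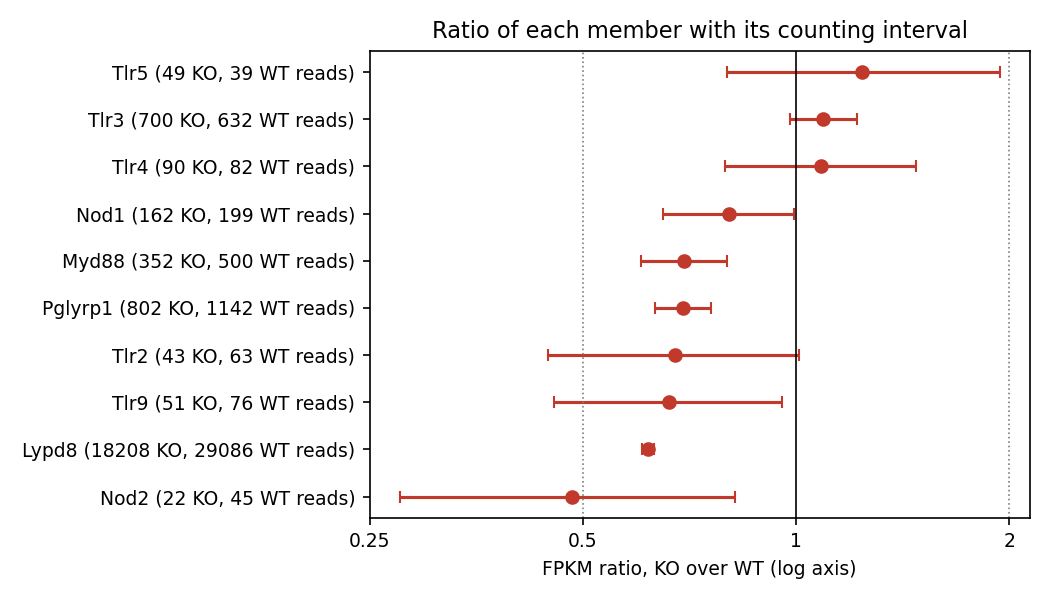
FPKM ratio of each member, KO over WT, on a log axis with exact 95% counting intervals as bars and read numbers beside the names, ordered from the highest ratio at the top. Tlr5, Tlr3 and Tlr4 lie right of 1 with intervals that include 1, and the 7 others lie left of 1, from Nod1 at 0.803 to Nod2 at 0.482, the interval of Tlr2 reaching 1.01.

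Marker lists of further cell types were set beside these values. The T cell markers were all lower in KO, 8 of 8, with sums of 9.85 FPKM in KO and 21.3 FPKM in WT. Tuft cell markers were all higher in KO, 8 of 8, at 87.0 FPKM in KO and 19.5 FPKM in WT. Goblet cell markers summed to 7741 FPKM in KO and 5870.2 FPKM in WT, with 5 of 7 higher and a median log2 ratio of 0.05. The higher sum came from Clca1, with 2059 FPKM in KO and 696 FPKM in WT, and Spink4, with 1095 and 511 FPKM. Tff3 and Agr2, also among the higher ones, had ratios of 1.03 and 1.01. Fibroblast, endothelial and smooth muscle markers lay near 1, with ratios of their sums of 1.02, 1.05 and 1.11.

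**Figure D4:**
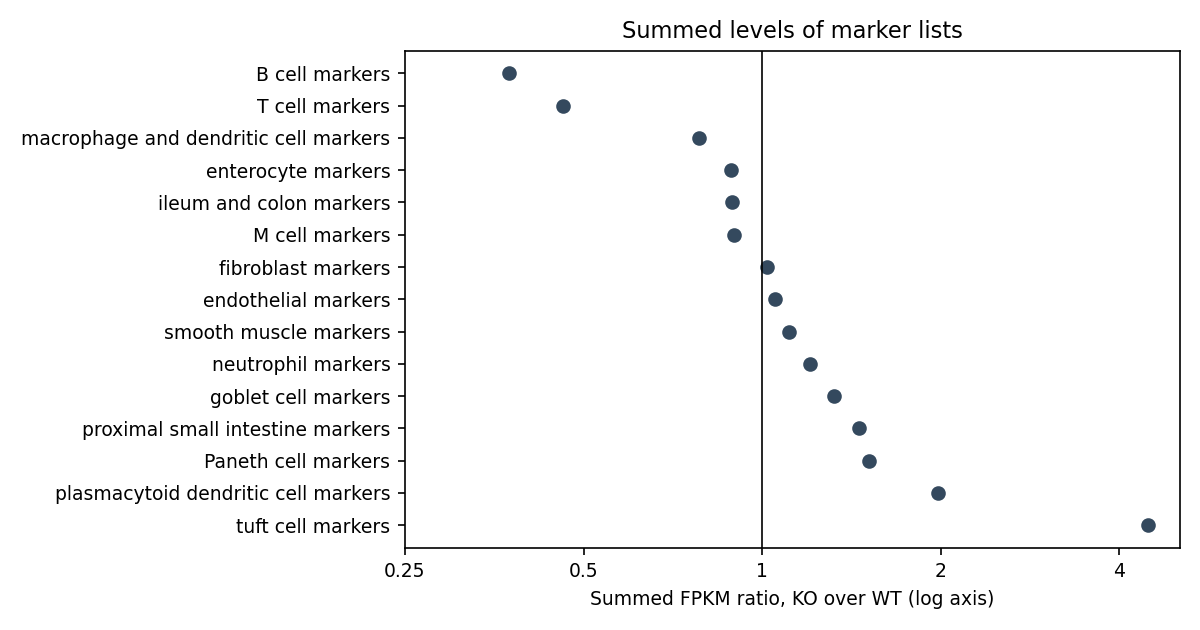
Ratio of the summed FPKM of each marker list, KO over WT, on a log axis, 1 point per list and no error since each sum comes from 1 library of each genotype. B cell and T cell markers lie lowest, at 0.374 and 0.462, and tuft cell markers highest, at 4.46.

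The other genes of these pathways were read from lists of 93 genes, of which 90 were measured and 73 compared. Of the 73, 55 were lower in KO and 18 higher, beside 58.7% lower and 41.3% higher among all compared genes. At least 2-fold lower were 4, beside 2.51% of all, and 1 was at least 2-fold higher, beside 1.61%. The median log2 ratio of the 73 was -0.20, beside -0.05 over all. Some of the 73, among them Lbp, Irak3, Nlrc5 and Pglyrp2, passed the filter only through WT, where they were higher. The filter thus sets part of these counts and of this median, and of those of their lists below. The lists were also chosen with earlier results of these data known, so nothing is read from these counts. For the list counts below, the shares lower over all genes are 58.7% of compared genes and 58.0% of genes with any reads. Here and below, past 2-fold refers to the log2 ratio with its pseudocount.

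Of the 7 other Toll-like receptors, 6 were lower in KO and none of the 4 compared reached 2-fold. Tlr1, the partner of TLR2 for triacylated lipoproteins, was the most abundant, with 2.62 FPKM in KO and 4.46 FPKM in WT, a ratio of 0.588 (0.479 to 0.720). Tlr6, the partner for diacylated lipoproteins, had 22 reads in KO and 27 in WT. TLR1 and TLR6 are closely related and may share reads, so their values are uncertain. Tlr7, a sensor of single-stranded RNA, had 1.18 FPKM in KO and 1.22 FPKM in WT, and its relative Tlr8 had 35 and 37 reads. Tlr12, a sensor of the protozoan protein profilin in mice, had 1.98 FPKM in KO and 3.54 FPKM in WT, and was named after its values were seen. Tlr13, a sensor of bacterial RNA in mice, was the 1 of the 7 that was higher, with 1.94 FPKM in KO and 1.69 FPKM in WT, and was likewise named after its values were seen.

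Most co-receptors and chaperones were lower in KO. Ly96 (MD-2), which holds the lipid part of lipopolysaccharide, had 2.77 FPKM in KO and 4.55 FPKM in WT, a ratio of 0.609 (0.419 to 0.877), and this interval overlaps that of Tlr4. Cd14, which hands lipopolysaccharide to the complex, had 3.13 and 5.15 FPKM, and Lbp, the binding protein that delivers it, had 0.797 and 1.41 FPKM. Of the 8 compared co-receptors and chaperones, 7 were lower in KO, with a median log2 ratio of -0.31 and none past 2-fold. The exception was Cd36, a fatty acid carrier and co-receptor of TLR2, with 11.5 FPKM in KO and 9.3 FPKM in WT, a ratio of 1.23 (1.10 to 1.38). Hsp90b1, the chaperone that folds most Toll-like receptors and the most abundant of the list, had 112 FPKM in KO and 114 FPKM in WT. Cd180, a B cell relative of TLR4, had 29 reads in KO and 74 in WT, and Unc93b1, which carries TLR3, TLR7 and TLR9 to endosomes, had 13.3 and 20.3 FPKM. Cd36, Cd180 and Unc93b1 were named after their values were seen.

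Adaptors and kinases lay close to 0. Their median log2 ratio was -0.07 over 12 compared genes, with 8 lower, 4 higher and none past 2-fold. Tirap, which bridges MYD88 to TLR2 and TLR4, had 2.81 FPKM in KO and 2.88 FPKM in WT. Tab2, the most abundant, had 17.9 FPKM in KO and 22.9 FPKM in WT, and the MYD88-bound kinase gene Irak2 had 12.2 and 15.9 FPKM, a ratio of 0.767 (0.703 to 0.835). Inhibitors of the pathways had a median of -0.29 over 7 genes, with 6 lower. Irak3 and Nlrc5 passed the filter only through WT, where they were higher, so the filter sets part of this median and count. Of all 9 inhibitors measured, 7 were lower and 2 higher. The decoy kinase gene Irak3 had 0.971 FPKM in KO and 1.4 FPKM in WT, and the inhibitory receptor gene Sigirr had 8.56 and 9.96 FPKM. Tollip was the most abundant, at 28.9 and 27.4 FPKM. Past 2-fold was Nlrc5, at 0.733 FPKM in KO and 2.53 FPKM in WT, whose product is also the transactivator of MHC class I genes.

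For the 11 NOD partners the median log2 ratio was -0.15, with 8 lower, 3 higher and none past 2-fold. Ripk2, the kinase of both NOD receptors, had 1.71 FPKM in KO and 2.28 FPKM in WT, a ratio of 0.749 (0.558 to 1.002). Slc15a1, the peptide carrier that also brings muramyl dipeptide into enterocytes, was the most abundant at 247 FPKM in KO and 229 FPKM in WT. Pglyrp2, an amidase that cleaves peptidoglycan and the 1 other peptidoglycan recognition gene measured, had 0.557 FPKM in KO and 1.10 FPKM in WT.

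NF-kB response genes had the lowest median of the related lists with more than 1 compared gene, -0.48 over 8 genes. All 8 were lower in KO, beside 58.7% of all compared genes, and of all 15 measured 13 were lower and 2 higher. None of the 8 reached 2-fold on the log2 ratio with its pseudocount. By the plain ratio the adhesion molecule gene Icam1 did, with 1.16 FPKM in KO and 2.84 FPKM in WT, a ratio of 0.407 (0.314 to 0.523). Nfkbia, the inhibitor that NF-kB induces in feedback, had 25.4 FPKM in KO and 50.7 FPKM in WT, a log2 ratio of -0.97. The cytokine genes Tnf, Il1b, Il6 and Il12b each had 31 reads or fewer in either library. Icam1 and these 4 genes were named after their values were seen. Antibacterial products of the mucus layer were mixed, with 5 of 9 lower. The lectin genes Reg3g and Reg3b were 2-fold lower or more, at log2 ratios of -4.90 and -3.77, and Ang4 was 2-fold higher or more at 2.38. Lyz1, the most abundant, had 4250.3 FPKM in KO and 5754 FPKM in WT.

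**Figure D5:**
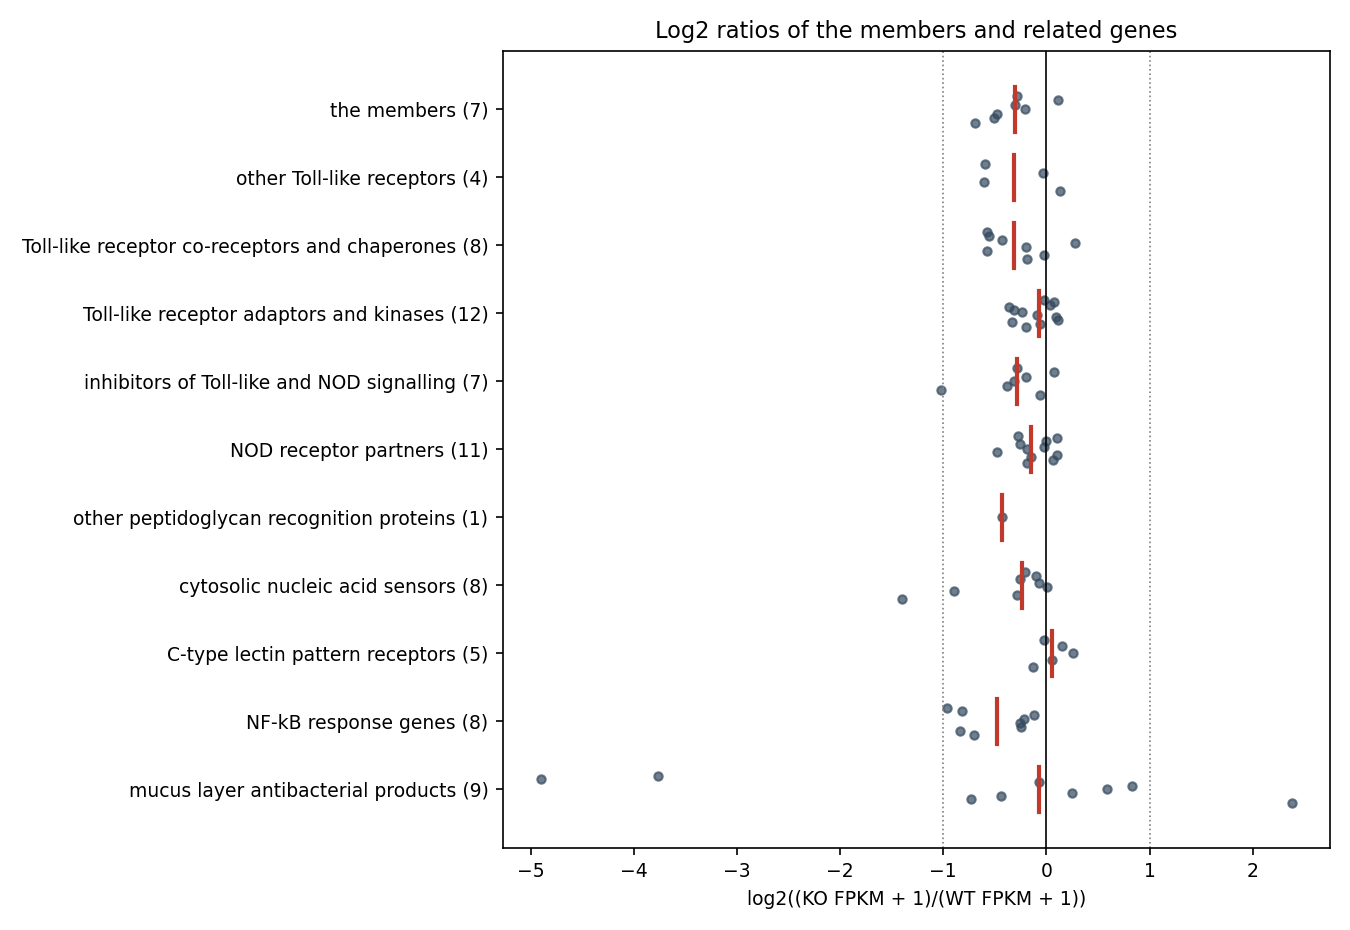
Log2((KO FPKM + 1)/(WT FPKM + 1)) of each compared gene of the members and of the related lists (points, 1 per gene, number compared in parentheses) with the median of each list in red and 2-fold as dotted lines. The members have a median of -0.30, adaptors and kinases lie at -0.07 and NF-kB response genes at -0.48.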

How the data were processed

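Small intestine RNA was extracted with TRIzol and its cDNA amplified by SMART-SeqII, per the labels' protocols. The authors deposited FPKM values for 27275 genes, 1 column per library. The submitters' processing notes name Bowtie2 2.2.3, HTSeq 0.6.0 and the build mm10, with no roles. The sources used here do not state annotation release, read layout, strand setting, filters or pooling, and these decide how reads of related or overlapping genes were divided.

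Columns were matched to samples by name. Exon lengths, coordinates and gene types came from GENCODE M21 (GRCm38), which held 27222 of the identifiers. FPKM times exon length stepped in whole reads, within 0.01 of a read, for 90.7% of values above 0 in KO and 90.6% in WT, which gave the read numbers. Intervals are exact Clopper-Pearson (ratios) and exact Poisson (levels). With 1 library per genotype no p-value is given. The steps were tested on simulated data. Members and lists were chosen with earlier results of these data known. Named genes are the members, Spib, 13 pathway genes picked by name (Tlr1, Tlr6, Tlr7, Tlr8, Cd14, Ly96, Lbp, Ticam1, Tirap, Ripk2, Irak2, Irak3 and Sigirr), and from each related list the most abundant gene and those past 2-fold, besides genes said to be named after their values were seen and genes of marker lists named beside a member. With 2 libraries a gene has only 1 ratio, so no search for genes of like pattern was made. Alternatives were pseudocounts of 0.1 and 5, 3 rescalings, other filters on low values and, added after seeing the data, neither pseudocount nor filter. Python 3.11.15, pandas 2.3.3 and scipy 1.17.1 were used.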

Additional observations from a re-analysis of the deposited data

How the results depend on the processing

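Each member kept the direction of its log2 ratio under pseudocounts of 0.1 and 5 and under rescaling to equal sums (TPM), by the median ratio and by the upper quartile. Of these 50 values, 47 differed from the reported one by less than the counting error. The other 3 were those of Lypd8 under the rescalings, from -0.72 to -0.64. Counting intervals were formed on FPKM as reported. The rescalings multiplied KO values by 1.040 (median ratio), 1.033 (upper quartile) and 0.980 (TPM). By the median ratio and upper quartile factors, the upper bound of Nod1 and the lower bound of Tlr3 come to lie above 1. By the TPM factor, the upper bound of Tlr2 falls below 1. Counts of members past a threshold cover those that the filter of each setting kept. None was 2-fold lower and 1 was 1.5-fold lower under each pseudocount and rescaling, and with no filter or a minimum of 5 FPKM. Nod2, which the filter at 1 FPKM left out, had a log2 ratio of -0.82 with a pseudocount of 0.1, more than 1.5-fold lower. With neither pseudocount nor filter, chosen after seeing the data, 1 member was 2-fold lower (Nod2) and 3 were 1.5-fold lower (Nod2, Lypd8 and Tlr9). That rule takes in Nod2, which the filter leaves out, and does not shrink the ratio of Tlr9. The median log2 ratio of the members ran from -0.53 under that rule to -0.10 with a pseudocount of 5. No paired analysis was possible because there was 1 library of each genotype, and for the same reason no library could be left out. Depth limits Nod2, Tlr5, Tlr2, Tlr9 and Tlr4 most, with 22 to 90 reads in each library.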

Other observations

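Pattern receptors outside the Toll-like and NOD families differed by list. Among 8 cytosolic nucleic acid sensors, 7 were lower in KO, beside 58.7% of all compared genes, with a median log2 ratio of -0.23. Zbp1, a sensor of Z-form nucleic acids, was past 2-fold, with 3.001 FPKM in KO from 187 reads and 9.56 FPKM in WT from 588 reads, a ratio of 0.314 (0.265 to 0.371). Mavs, the mitochondrial adaptor of RIG-I-like receptors and the most abundant of the list, had 25.1 FPKM in KO and 26.5 FPKM in WT. The RNA helicase sensor Ifih1 had 12.3 and 13.2 FPKM, and the adaptor of cytosolic DNA sensing, Sting1 (Tmem173), had 2.63 and 5.73 FPKM. Those 2 genes were named after their values were seen.

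C-type lectin receptors of myeloid cells had a median log2 ratio of 0.05 over 5 compared genes, with 2 lower, 3 higher and none past 2-fold. Clec4n (Dectin-2), the most abundant, had 4.55 FPKM in KO and 4.001 FPKM in WT. The mannose receptor gene Mrc1 and the beta-glucan receptor gene Clec7a, named after their values were seen, had ratios of 1.05 (0.912 to 1.21) and 0.977 (0.797 to 1.20). Over the 12 macrophage and dendritic cell markers the summed level had a ratio of 0.782.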
